A study of Oryctolagus cuniculus with 12 samples.

Results

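Macrophage and complement C1q genes were followed in the jaw joint of the rabbit by the names LYZ, TYROBP, CSF1R, C1QA, C1QB, C1QC, CD68, CD163, MRC1 and TIMD4, matched to the gene names of the deposited count table. All 10 names matched 1 row each, so the set held 10 of the 14621 genes in the table. All 10 also passed the filter on low counts, TIMD4 through the osteoarthritis (OA) condylar cartilage alone, since it had no count in any control library. LYZ was higher in OA than in control condylar cartilage and was the only one of the 10 called by edgeR in either OA comparison. In control joints C1QB, C1QC and MRC1 were lower, and CSF1R and CD68 higher, in the condylar cartilage than in the superficial zone.

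Macrophages clear debris and dying cells in the joint lining and, with osteoclasts, share an origin in the monocyte lineage that depends on the receptor CSF1R. C1q, made largely by macrophages, is the recognition molecule of the classical complement pathway and is built from the products of C1QA, C1QB and C1QC. These C1q genes stand next to one another in gene order in a RefSeq naming table of another rabbit assembly. Lysozyme, encoded by LYZ, cleaves bacterial cell walls and is a product of monocytes, macrophages and neutrophils.

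The study sequenced bulk RNA of the temporomandibular joint from rabbits of WT genotype, with 3 libraries in each of 4 groups. The control superficial zone and control condylar cartilage groups came from joints labelled as controls. The OA superficial zone and OA condylar cartilage groups came from joints whose disc had been perforated with a 2.5 mm punch at its rear outer part. The labels do not state whether control joints were operated on, the age of the animals, the time after surgery or which libraries share an animal, so p-values measure only the spread between these samples.

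Library totals ranged from 7326255 to 16769536 counts. OA superficial zone 2 and 3, and OA condylar cartilage 1 and 2, were nearly identical. Their biological coefficients of variation were 0.0421 and 0.0599, and those of all other within-group pairs lay between 0.219 and 0.639. Each such near-duplicate pair was summed as 1 sample for the tests, which left n = 3 in each control group and n = 2 in each OA group. OA superficial zone 1 stood apart from its group, with a summed level of 10 cartilage matrix genes of 71893 CPM (counts per 1000000 counts, with TMM scaling) against 6358 and 6448 CPM in the other libraries. Control condylar cartilage 3 also stood apart, with 3607 CPM of the same genes against 68910 and 94696 CPM in its group, and 2481 CPM of 7 skeletal muscle genes against 12.8 and 4.32 CPM. Its cartilage matrix sum was below that of every control superficial zone library (12153 to 22470 CPM), so these markers went against the label condylar cartilage. Other lists went with the label. Its osteoclast sum was 3499.6 CPM, against 3500.4 and 3343 CPM in its group and 571 to 769 CPM in the control superficial zone. Without MMP9 the library's osteoclast sum was 1997 CPM, against 1587 and 1065 CPM and against 455 to 508 CPM. Its fibroblast sum was 254 CPM, against 244 and 322 CPM and against 581 to 724 CPM. Values are given below without OA superficial zone 1 where they rest on it. With near-duplicates summed, those fits leave 1 sample in the OA superficial zone. Their SE and p-values take no spread from that group. Leaving out OA condylar cartilage 3 likewise leaves 1 sample in the OA condylar cartilage.

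**Figure D1:**
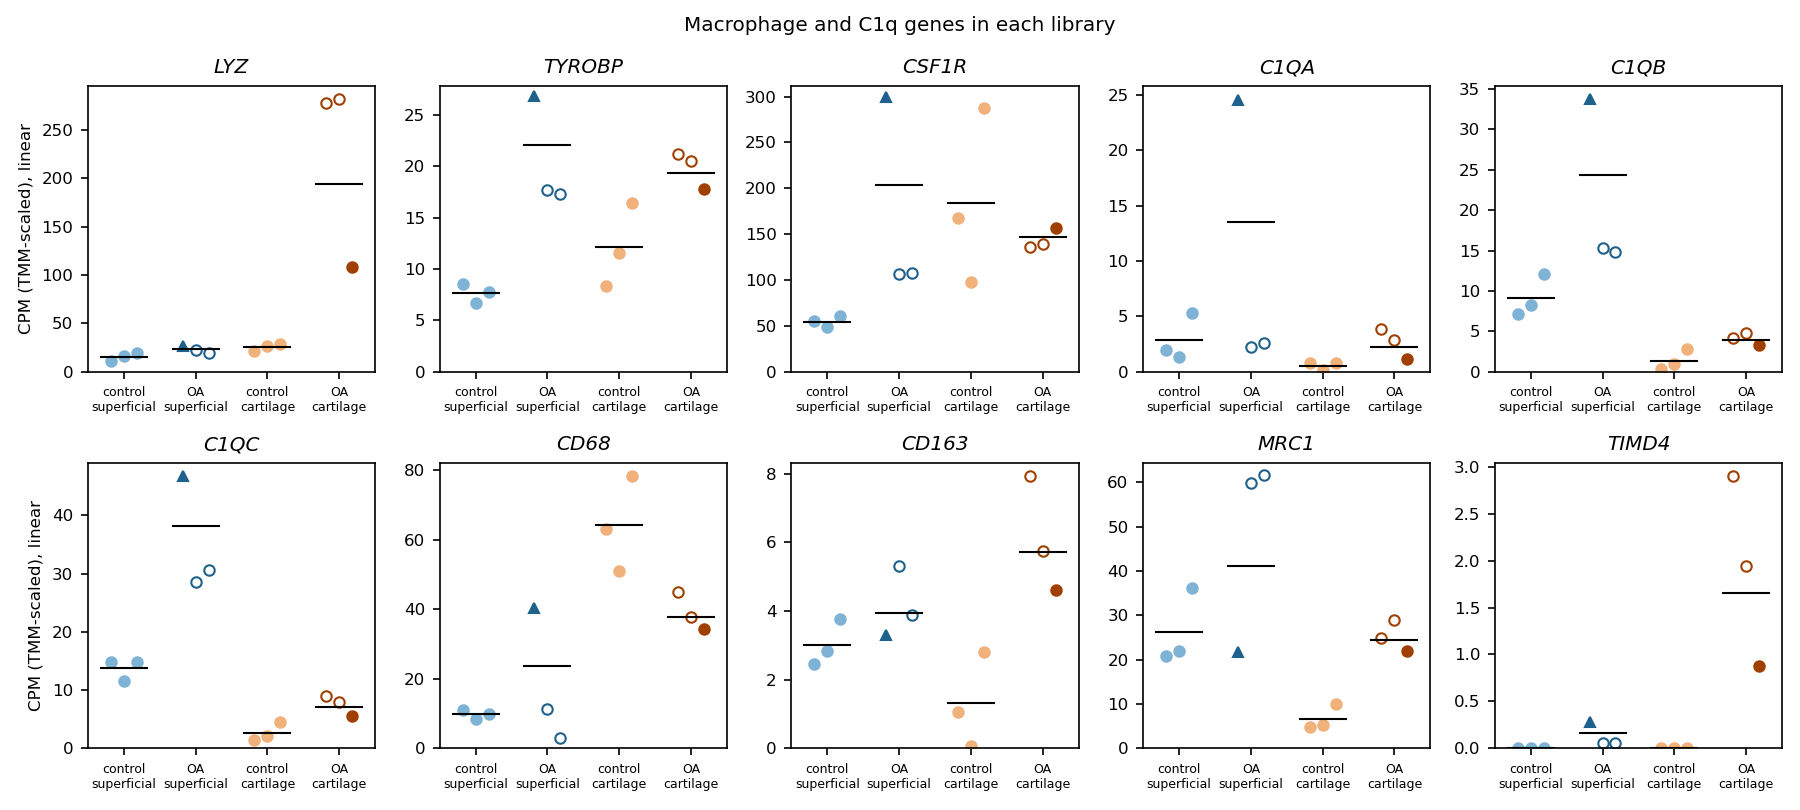
CPM of each of the 10 genes in each of the 12 libraries, on linear axes that start at 0, with the 4 groups along the x axis. Points are libraries (open circles, near-duplicate pairs; triangle, OA superficial zone 1) and black lines are group means over samples. LYZ reached 282 CPM in the OA condylar cartilage, and OA superficial zone 1 was the highest library for TYROBP, CSF1R, C1QA, C1QB and C1QC.

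Set against each other per length, in deposited TPM (transcripts per 1000000 transcripts), CSF1R had the highest group mean of the set in 3 groups and LYZ in the OA condylar cartilage. CSF1R was at 68.7 ± 17.4 TPM (SD, n = 3) in the control superficial zone and at 236 ± 128 TPM (SD, n = 3) in the control condylar cartilage. It made up 28.9% to 37.1% of the summed TPM of the set in the libraries of the control superficial zone and 39.0% to 58.2% in those of the control condylar cartilage. LYZ made up 30.3% to 54.0% of that sum in the OA condylar cartilage libraries, against 4.27% to 11.3% in the other 9 libraries. CD163 and TIMD4 had low levels per length, with group means of at most 6.01 TPM for CD163 and 3.93 TPM for TIMD4.

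LYZ (ENSOCUG00000013891) was at 22.0, 26.7 and 28.4 CPM in the control condylar cartilage libraries and at 278, 282 and 108 CPM in the OA condylar cartilage libraries. In the superficial zone LYZ was at 11.2, 16.0 and 19.4 CPM in control and at 26.6, 22.1 and 19.8 CPM in OA. All 3 OA condylar cartilage libraries were far above the other 9, and the third lay well below the near-duplicate pair. The order of the LYZ group means ran from OA condylar cartilage down through control condylar cartilage and OA superficial zone to control superficial zone, and the libraries of control condylar cartilage and OA superficial zone overlapped. LYZ rose in OA condylar cartilage from 25.7 ± 3.28 CPM (SD, n = 3) to 194 ± 122 CPM (SD, n = 2), a log2 fold change of 2.91 ± 0.41 (SE) with an edgeR adjusted p of 0.0171. It was the only 1 of the 10 genes past 0.05, where 0.866% of all 14438 genes tested were called. The LYZ call was lost without control condylar cartilage 1 (adjusted p = 0.128), without control condylar cartilage 2 (adjusted p = 0.0802) and in a fit of the condylar cartilage libraries alone (adjusted p = 0.0703), within a range of 3.01e-08 to 0.128 over 23 alternatives. In the superficial zone the LYZ log2 fold change was 0.61 ± 0.40 (SE; edgeR adjusted p = 0.584), and 0.42 ± 0.47 without OA superficial zone 1 (adjusted p = 0.942).

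The length that the deposited table gives for LYZ, which Salmon estimates from the transcripts it assigns reads to, also differed between the groups. It was 2060, 1578 and 1715 bases in the control condylar cartilage and 1172, 1175 and 1245 bases in the OA condylar cartilage, so that the OA libraries did not overlap the controls. In the superficial zone it lay between 2016 and 2577 bases in control and between 1352 and 2522 bases in OA. The mean LYZ length in OA condylar cartilage was 67.1% of that in control, and 14 of 8197 genes with a mean of 10 CPM or more (0.171%) had a ratio as low. LYZ was accordingly 7.54-fold higher in OA condylar cartilage by mean CPM and 11.7-fold higher by mean TPM. Which LYZ transcripts, or which copies of related lysozyme genes, the reads came from was not tested.

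**Figure D2:**
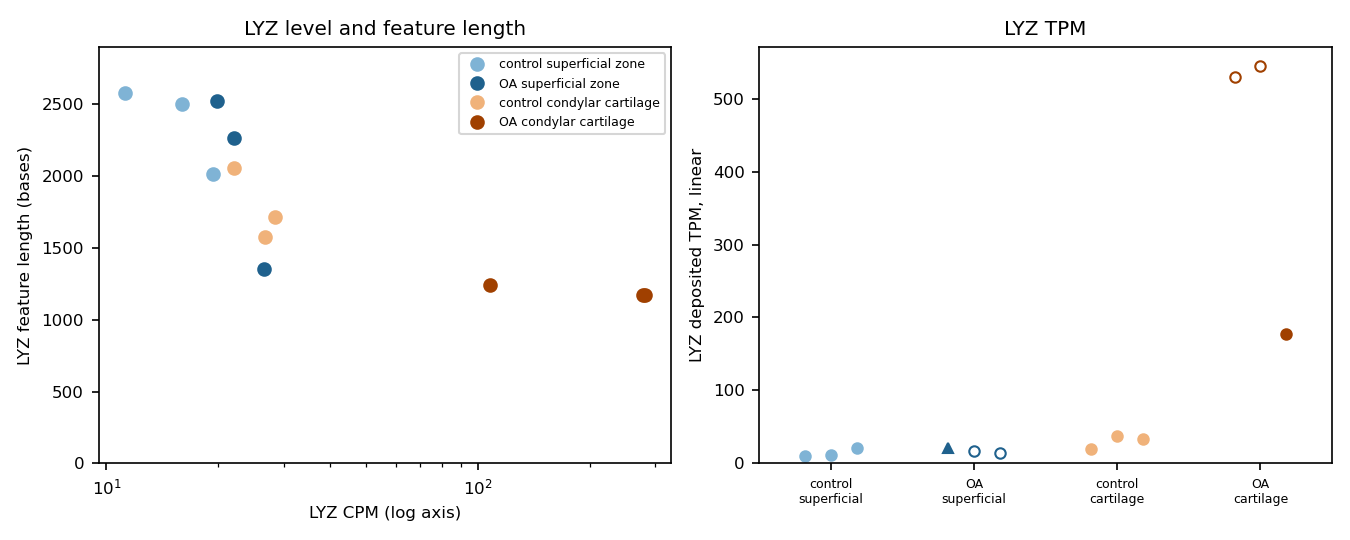
Left, LYZ feature length in bases (linear axis from 0) against LYZ CPM (log axis), 1 point per library. Right, deposited LYZ TPM by group on a linear axis from 0, with open circles for the near-duplicate pairs and a triangle for OA superficial zone 1. The 3 OA condylar cartilage libraries combine the highest LYZ levels with the shortest lengths, 1172 to 1245 bases.

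Genes of neutrophils and marrow moved with LYZ in the OA condylar cartilage. Of 16 such genes listed, 12 were tested and 9 were higher in OA condylar cartilage by edgeR, where 0.866% of all genes were called. Among the 9 were LTF (lactoferrin of neutrophil granules; log2 fold change 8.20 ± 1.33 (SE), adjusted p = 0.0228) and CAMP (cathelicidin; 8.04 ± 1.19, adjusted p = 0.018). Summed without MMP9, which osteoclasts also make, the list was at 2.13, 0.879 and 13.8 CPM in control condylar cartilage and at 2072, 2044 and 627 CPM in OA condylar cartilage. It was at 1.89 to 4.66 CPM in the control superficial zone and at 210.1, 12.4 and 12.3 CPM in the OA superficial zone. The LTF and CAMP calls were lost without control condylar cartilage 1 or 2, that of LTF also without control superficial zone 1 (adjusted p of at most 0.131 and 0.128). All 9 calls were lost without control condylar cartilage 1 or 2, and 1, 4 and 6 were left without control superficial zone 1, 2 and 3. Of all genes, 0.255%, 0.343% and 0.463% were called in these last 3 fits. MMP8 was at 0 in all libraries of both control groups. Erythroid genes did likewise, with 6 of 9 tested higher in OA condylar cartilage, against the same 0.866% of all genes. Their summed level was 13.7 to 54.6 CPM in control condylar cartilage and 427 to 1446 CPM in OA condylar cartilage. It was 13.9 to 22.3 CPM in the control superficial zone and 20.9 to 134 CPM in the OA superficial zone. None of the 9 was at 0 throughout a group. All 6 erythroid calls were likewise lost without control condylar cartilage 1, where no gene of the table was called, or 2, and 1, 2 and 2 were left without control superficial zone 1, 2 and 3. Both sums, like LYZ, were higher in OA condylar cartilage 1 and 2 than in 3, and their part in the LYZ result was not tested. Control levels were near the floor for several of these genes. LTF and CAMP averaged 0.808 and 0.713 CPM in control condylar cartilage and 0.33 and 0.293 CPM in the control superficial zone. RHAG and AHSP of the erythroid list averaged at most 0.262 CPM in each control group. Such genes passed the filter on low counts largely through OA libraries, so the numbers called among those tested are a description. The log2 fold changes and adjusted p of LTF and CAMP are likewise a description, and no test of such genes is read.

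**Figure D3:**
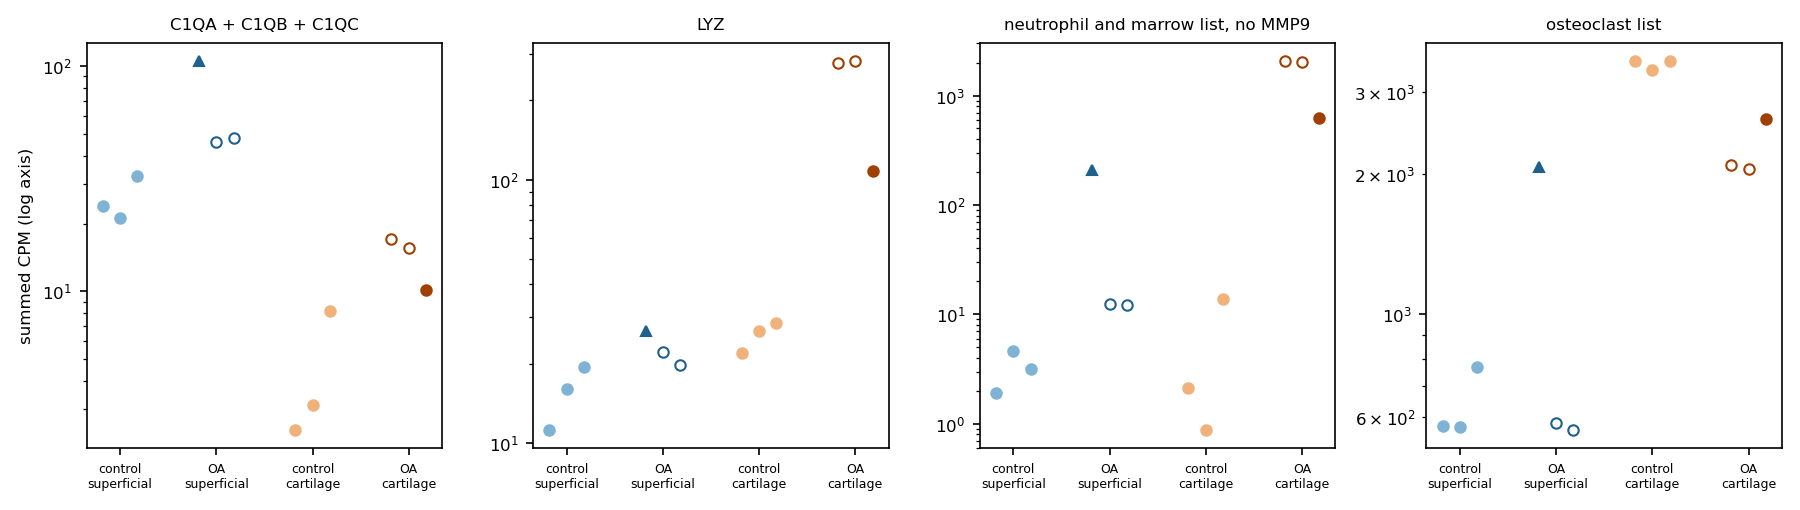
Summed CPM, on log axes, of the 3 C1q chain genes, of LYZ, of the neutrophil and marrow genes without MMP9, and of the osteoclast genes, 1 point per library and the 4 groups along the x axis. Open circles are near-duplicate pairs and the triangle is OA superficial zone 1. LYZ and the neutrophil and marrow genes are both highest in the OA condylar cartilage, whereas the C1q sum is highest in the superficial zone. The osteoclast sum, MMP9 included, is highest in the control condylar cartilage. Without MMP9 it is 1065 to 1997 CPM there and 1076 to 1337 CPM in the OA condylar cartilage.

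TYROBP (ENSOCUG00000024755) encodes the adaptor through which TREM2 and other receptors of myeloid cells signal. It was at 8.57, 6.72 and 7.76 CPM in the control superficial zone and at 26.8, 17.7 and 17.3 CPM in the OA superficial zone, with no overlap. It was at 8.36, 11.6 and 16.4 CPM in the control condylar cartilage and at 21.2, 20.5 and 17.8 CPM in the OA condylar cartilage, again with no overlap. In both zones every OA library thus lay above every control library. Of all genes, 10.1% did so in the superficial zone and 15.1% in the condylar cartilage, and the share that did so in both was not computed. The TYROBP log2 fold change was 1.52 ± 0.36 (SE; edgeR adjusted p = 0.143) in the superficial zone and 0.67 ± 0.36 (adjusted p = 0.639) in the condylar cartilage. With OA superficial zone 1 left out the first was 1.19 ± 0.36 (adjusted p = 0.316). It passed the threshold with DESeq2 (adjusted p = 0.0196) and when the 12 libraries were taken as separate samples (adjusted p = 0.0393). On the TPM scale, which has no TMM factor, OA superficial zone 1 had the lowest TYROBP level of its group, 72.2 TPM against 92.9 and 91.3 TPM. The OA superficial zone and OA condylar cartilage overlapped in TYROBP, as did the control groups.

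CSF1R (ENSOCUG00000021056) encodes the receptor for the growth factors CSF1 and IL34. It was at 55.0, 48.7 and 60.8 CPM in the control superficial zone and at 299, 107 and 108 CPM in the OA superficial zone, where OA superficial zone 1 was far above the rest and all 3 were above the controls. In the condylar cartilage CSF1R was at 168, 97.8 and 287 CPM in control and at 136, 139 and 157 CPM in OA, and the groups overlapped. The CSF1R log2 fold change in the superficial zone was 1.89 ± 0.48 (SE; edgeR adjusted p = 0.176), and 0.97 ± 0.46 (adjusted p = 0.593) without OA superficial zone 1. With DESeq2 the adjusted p was 0.0111. For the condylar cartilage it was -0.32 ± 0.49 (adjusted p = 0.935). The 3 groups other than the control superficial zone overlapped in CSF1R.

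C1QB and C1QC were higher in the superficial zone than in the condylar cartilage in control and in OA joints, and in each zone every OA library lay above every control library. C1QC (ENSOCUG00000015138) was at 14.9, 11.6 and 14.9 CPM in the control superficial zone and at 46.8, 28.6 and 30.6 CPM in the OA superficial zone. It was at 1.37, 2.05 and 4.60 CPM in the control condylar cartilage and at 9.04, 7.97 and 5.63 CPM in the OA condylar cartilage. The 4 groups did not overlap in C1QC, in the order OA superficial zone, control superficial zone, OA condylar cartilage and control condylar cartilage. C1QB (ENSOCUG00000015143) kept the same order without overlap, at 7.12, 8.25 and 12.1 CPM in the control superficial zone, 33.7, 15.3 and 14.8 CPM in the OA superficial zone, 0.304, 0.952 and 2.80 CPM in the control condylar cartilage and 4.13, 4.76 and 3.32 CPM in the OA condylar cartilage. For C1QB too, OA superficial zone 1 was the highest library of its group. The share of all genes that keep the 4 groups apart was not computed. Each OA group holds a near-duplicate pair, whose libraries are counted singly here.

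C1QA (ENSOCUG00000029367) was counted less, with 2 to 7 counts per library in the control condylar cartilage. It was at 2.00, 1.38 and 5.35 CPM in the control superficial zone and at 24.6, 2.22 and 2.59 CPM in the OA superficial zone. For C1QA in the condylar cartilage the values were 0.760, 0.146 and 0.785 CPM in control and 3.91, 2.88 and 1.15 CPM in OA. The high OA superficial mean of C1QA came from OA superficial zone 1 alone, since the other libraries lay within the control range, while in the condylar cartilage the groups did not overlap.

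No C1q chain passed the test in either OA comparison. In the superficial zone the log2 fold changes were 1.47 ± 0.45 for C1QC (SE; edgeR adjusted p = 0.263), 1.41 ± 0.60 for C1QB (adjusted p = 0.42) and 2.20 ± 0.92 for C1QA (adjusted p = 0.412). Without OA superficial zone 1 they were 1.1 ± 0.5, 0.72 ± 0.68 and -0.26 ± 0.97, so that the direction of C1QA turned. The condylar cartilage values were 1.40 ± 0.47 for C1QC (adjusted p = 0.294), 1.5 ± 0.65 for C1QB (adjusted p = 0.5) and 2.11 ± 1.03 for C1QA (adjusted p = 0.585). Under limma-voom with sample weights C1QC (adjusted p = 0.00826) and C1QB (adjusted p = 0.0134) passed in the condylar cartilage. On the TPM scale C1QC was at 19.5 ± 4.51 (SD, n = 3) in the control superficial zone and 34.3 ± 2.71 (SD, n = 2) in OA, where OA superficial zone 1 was no longer the highest library. In bulk tissue, fewer cells of a type and less RNA per cell cannot be told apart.

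The balance between some of the macrophage genes differed by zone. The CPM of TYROBP divided by that of C1QC was between 0.521 and 0.620 in all 6 superficial zone libraries, control and OA alike, OA superficial zone 1 included. In the condylar cartilage the same ratio was 3.56 to 6.11 in control and 2.35 to 3.16 in OA. CSF1R over C1QC was 3.53 to 6.40 in the superficial zone libraries, 47.7 to 123 in the control condylar cartilage and 15.0 to 27.9 in the OA condylar cartilage. Neither ratio overlapped between the zones, nor did LYZ over C1QC or CD68 over CSF1R. MRC1 over C1QC did overlap, at 1.40 to 2.43 in control superficial zone and 2.20 to 3.44 in control condylar cartilage libraries. So did CD163 over C1QC, C1QC over C1QB and C1QA over C1QB. C1QC by itself did not overlap between the zones, and how many gene pairs of the table would separate them was not computed. LYZ over TYROBP was 0.995 to 2.64 in the 9 libraries outside the OA condylar cartilage and 6.05 to 13.8 within it.

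CD68 (ENSOCUG00000010383), a lysosomal glycoprotein of macrophages that osteoclasts also carry, was highest in the control condylar cartilage. It was at 63.2, 51.0 and 78.5 CPM there and at 44.9, 37.9 and 34.3 CPM in the OA condylar cartilage, without overlap. It was at 11.1, 8.48 and 9.96 CPM in the control superficial zone and at 40.3, 11.3 and 2.96 CPM in the OA superficial zone. The OA superficial zone libraries spanned the controls. OA superficial zone 2 and 3, near-duplicates in nearly all genes, differed 3.80-fold in CD68, with 193 and 55 counts, and 2 of 9816 genes with a mean of 5 CPM or more (0.0204%) were as far apart. The other 9 genes of the set differed by 1.00-fold to 1.37-fold between these libraries. The CD68 log2 fold change for OA was 1.24 ± 0.55 (SE; edgeR adjusted p = 0.435) in the superficial zone and -0.50 ± 0.32 (adjusted p = 0.766) without OA superficial zone 1, so its direction there rests on that library. Between OA and control condylar cartilage it was -0.76 ± 0.55 (adjusted p = 0.78).

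MRC1 (ENSOCUG00000003247), the mannose receptor of tissue macrophages, was at 20.8, 22.0 and 36.2 CPM in the control superficial zone and at 21.8, 59.8 and 61.6 CPM in the OA superficial zone. It was at 4.71, 5.35 and 10.1 CPM in the control condylar cartilage and at 24.9, 28.9 and 21.9 CPM in the OA condylar cartilage. Here OA superficial zone 1, high in the C1q chains, was the low library of its group, and MRC1 overlapped among all groups except the control condylar cartilage, which lay below the rest. The MRC1 log2 fold change for OA was 1.86 ± 0.48 (SE; edgeR adjusted p = 0.122) in the condylar cartilage. It passed the threshold in 7 of 23 alternatives, with an adjusted p of 0.0454 without OA superficial zone 1, 0.0159 by DESeq2 and 0.00301 by limma-voom. In the superficial zone it was 0.66 ± 0.47 (adjusted p = 0.601), and 1.21 ± 0.43 (adjusted p = 0.406) without OA superficial zone 1.

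CD163 (ENSOCUG00000003958), the macrophage scavenger receptor for haemoglobin bound to haptoglobin, was at 2.45, 2.83 and 3.77 CPM in the control superficial zone and at 3.31, 5.31 and 3.88 CPM in the OA superficial zone. It was at 1.06, 0.0732 and 2.80 CPM in the control condylar cartilage, the lowest from 1 count, and at 7.93, 5.76 and 4.61 CPM in the OA condylar cartilage. Control and OA overlapped in the superficial zone and did not in the condylar cartilage, and the 2 zones overlapped in each state. The CD163 log2 fold change in the condylar cartilage was 2.16 ± 0.84 (SE; edgeR adjusted p = 0.432). Without control condylar cartilage 3 it was 3.56 (adjusted p = 0.0732), and by limma-voom the adjusted p was 0.0126. In the superficial zone it was 0.40 ± 0.81 (adjusted p = 0.834).

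TIMD4 (ENSOCUG00000011915), a receptor for phosphatidylserine on dying cells that marks resident macrophages in the mouse, had 0 counts in all 6 control libraries. It had 52, 35 and 13 counts in the OA condylar cartilage and 2, 1 and 1 counts in the OA superficial zone. TIMD4 was thus counted in every OA library and in no control library, at low depth. Its mean in the OA condylar cartilage was 1.65 ± 1.09 CPM (SD, n = 2), at least 16-fold higher than the 0.103 CPM that 3 counts over the whole control condylar cartilage group would give. Since it passed the filter only through this group, its levels are given as a description and no test of it is read. For the superficial zone the 4 counts are too close to that floor for a fold. These limits cover counting error only.

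In OA against control in the superficial zone, all 9 genes other than TIMD4 had a positive log2 fold change by edgeR and none of the 10 passed the adjusted threshold, where 0.0208% of all genes tested were called. At an unadjusted p under 0.05 there were 6 of these 9, against 11.1% of all genes, but without OA superficial zone 1 there were 2 of 9, against 8.98%. DESeq2 called 2 of 10 (CSF1R and TYROBP) and 1.99% of all genes, 12 separate libraries called 1 (TYROBP) and 1.12% of all genes, and limma-voom called none of either. Without OA superficial zone 1, 7 of the 9 were positive and none was called, against 0.0342% of all genes. The median log2 fold change of the 9 was 1.41, beside 0.05 for all genes tested, and without that library it was 0.72, beside 0.0. For 5 of the 9 (LYZ, TYROBP, CSF1R, C1QB and C1QC) every OA library lay above every control library, which was so for 10.1% of all genes. Without OA superficial zone 1 it was 7 of the 9, against 22.9% of all genes.

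Between OA and control condylar cartilage, 7 of the 9 genes other than TIMD4 had a positive log2 fold change and 5 of the 9 had an unadjusted p under 0.05, against 9.25% of all genes. DESeq2 called 2 of the 9 (LYZ and MRC1), against 2.43% of all genes, and limma-voom called 6 of the 9, against 10.7% of all genes. Without OA superficial zone 1, edgeR called 2 (LYZ and MRC1), against 1.53% of all genes, and without both OA superficial zone 1 and control condylar cartilage 3 it called 5 (C1QB, C1QC, CD163, LYZ and MRC1), against 4.57% of all genes. With 12 separate libraries it called 2 of the 9 (LYZ and MRC1), against 3.03% of all genes. The median of the 9 was 1.5, beside -0.03 for all genes. Every OA library lay above every control library for 7 of the 9, against 15.1% of all genes, and below for CD68, against 14.7% of all genes. Without control condylar cartilage 3, C1QC (2.01, edgeR adjusted p = 0.0517), C1QB (2.49, adjusted p = 0.0821) and MRC1 (2.27, adjusted p = 0.0557) had larger log2 fold changes, still short of the threshold.

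**Figure D4:**
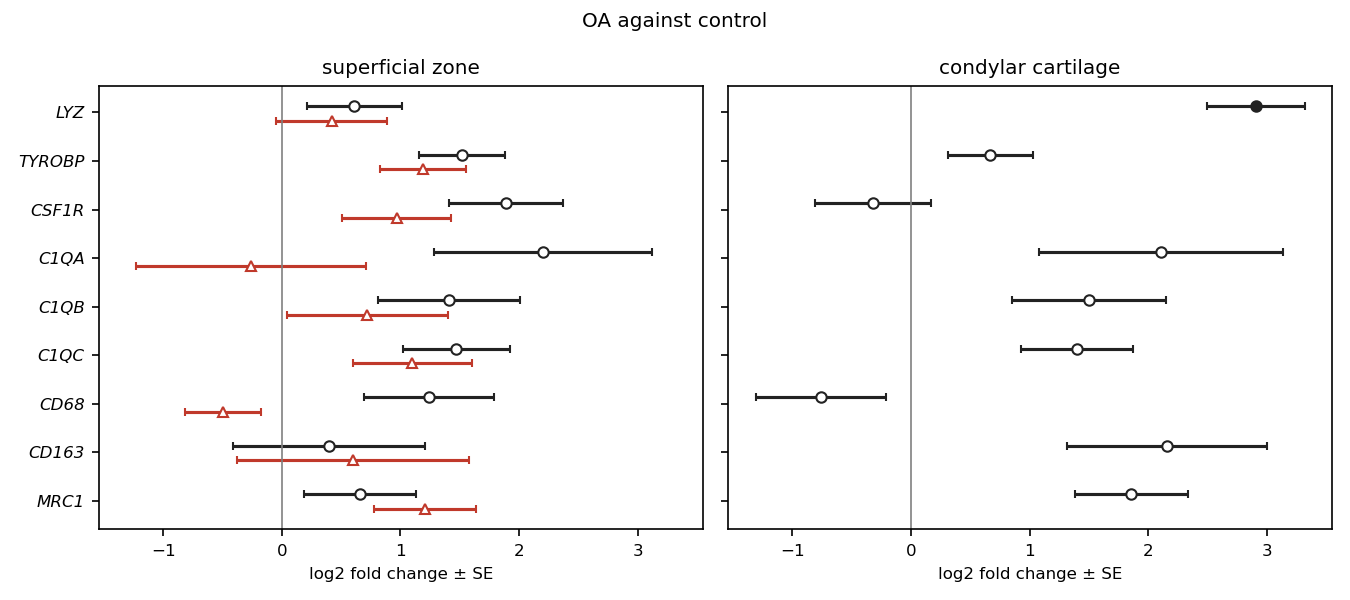
Log2 fold change ± SE of OA against control for 9 genes (TIMD4, with no control counts, is left out), in the superficial zone (left) and the condylar cartilage (right). Black circles are the 10-sample model, red triangles, drawn for the superficial zone only, the model without OA superficial zone 1, and filled symbols pass an adjusted p of 0.05. LYZ in the condylar cartilage is the 1 filled symbol, and C1QA and CD68 change sign in the superficial zone without OA superficial zone 1.

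Whether OA differed in its effect between the zones was tested as an interaction, and none of the 10 genes passed it with edgeR, where 0.0% of all genes tested were called. At an unadjusted p under 0.05 there were 3 of 10, against 8.76% of all genes, and without OA superficial zone 1 there was 1, against 8.24%. In the model of all 10 samples LYZ had the largest difference among the genes with counts in all groups, 2.30 ± 0.58 (SE; condylar cartilage minus superficial zone; edgeR adjusted p = 0.312). LYZ alone of the 10 passed with DESeq2 (adjusted p = 0.0438) and in 12 separate libraries (adjusted p = 0.0393), where 0.803% and 0.674% of all genes were called, and none passed with limma-voom. CSF1R differed the other way by -2.22 ± 0.69 (adjusted p = 0.443), and by -1.30 ± 0.60 without OA superficial zone 1. CD68 differed by -2.01 ± 0.78 (adjusted p = 0.521), and by -0.26 ± 0.39 without OA superficial zone 1. The values of C1QA (-0.08 ± 1.71), C1QB (0.09 ± 0.85) and C1QC (-0.07 ± 0.68) had standard errors larger than the values. With that library left out they were 2.37 ± 1.33 (adjusted p = 0.782), 0.78 ± 0.95 (adjusted p = 1.0) and 0.29 ± 0.69 (adjusted p = 1.0), so the small value of C1QA rests on it.

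In control joints, 5 of the 10 genes differed between condylar cartilage and superficial zone by edgeR, where 7.49% of all genes tested were called. These zone comparisons use the same samples as the OA comparisons, and the zones may come from the same joints, which the labels do not say. C1QC fell from 13.8 ± 1.90 CPM in the superficial zone to 2.67 ± 1.70 CPM in the condylar cartilage (SD, n = 3 each), a log2 difference of -2.36 ± 0.44 (SE; adjusted p = 0.00777), and was called in all 23 alternatives. C1QB fell by 2.73 on the log2 scale (adjusted p = 0.019) and MRC1 by 1.97 (adjusted p = 0.0199), whereas C1QA, at -2.44 ± 0.98, had an adjusted p of 0.195. CD68 rose from 9.86 ± 1.33 to 64.2 ± 13.8 CPM (SD, n = 3 each; log2 difference 2.7 ± 0.52, adjusted p = 0.00887) and CSF1R from 54.8 ± 6.08 to 184 ± 95.6 CPM (SD, n = 3 each; 1.75 ± 0.45, adjusted p = 0.0348). By library, 3 genes (LYZ, CSF1R and CD68) were higher without overlap, against 12.6% of all genes, and 4 (the C1q chains and MRC1) were lower, against 15.8% of all genes.

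Several of these control calls depended on single libraries. The CSF1R call was lost without any 1 of control superficial zone 1 (adjusted p = 0.122), 2 (0.152) or 3 (0.0926), control condylar cartilage 1 (0.0866) or 3 (0.0943), or OA condylar cartilage 3 (0.0565). The C1QB call was lost without control superficial zone 2 (adjusted p = 0.0555) or 3 (0.0627), or control condylar cartilage 1 (0.0627) or 2 (0.0719). The MRC1 call was lost without control superficial zone 2 (adjusted p = 0.0559) or 3 (0.0848), or control condylar cartilage 1 (0.101) or 2 (0.0766), and the CD68 call without control superficial zone 2 (adjusted p = 0.0555). These are edgeR values, and no direction changed.

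Osteoclast genes moved with CD68 and CSF1R across the control zones. Of 12 listed, 9 were tested and 7 were higher in control condylar cartilage by edgeR, where 7.49% of all genes were called. Without control superficial zone 2 it was 4, against 3.4% of all genes. Among the 7 were ATP6V0D2 (a proton pump subunit of osteoclasts; 46.8 ± 3.4 against 4.37 ± 2.68 CPM, SD, n = 3 each) and CTSK (cathepsin K; 849 ± 243 against 201 ± 37.7 CPM). Their summed level was 571 to 769 CPM in the control superficial zone, 3343 to 3500.4 CPM in the control condylar cartilage and 2049.7 to 2622 CPM in the OA condylar cartilage, and none of the 9 was at 0 throughout a group. In the OA superficial zone it was 2071, 581 and 562 CPM, high in the same library, OA superficial zone 1, that was high in CD68 and CSF1R. MMP9 alone averaged 1898 CPM in the control condylar cartilage. Without MMP9 the sum was 455 to 508 CPM in the control and 994, 492 and 477 CPM in the OA superficial zone. It was then 1065 to 1997 CPM in control and 1076 to 1337 CPM in OA condylar cartilage, which overlapped. The part of osteoclasts in the CD68 and CSF1R results was not tested. Endothelial genes were also higher in control condylar cartilage, 4 of 9 tested (1 without control superficial zone 2), against the same shares of all genes. Their sums were 323 to 522 CPM there and 197 to 218 CPM in the control superficial zone.

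In OA joints the zone comparison called 3 of the 10 genes by edgeR, against 6.48% of all genes tested. LYZ was higher in the condylar cartilage by 3.03 ± 0.47 on the log2 scale (SE; adjusted p = 0.00928), and by 3.21 without OA superficial zone 1. The LYZ call was lost by limma-voom (adjusted p = 0.125) and in a fit of the OA libraries alone (adjusted p = 0.0614). C1QC was lower by -2.43 ± 0.52 (adjusted p = 0.023) and C1QB by -2.63 ± 0.70 (adjusted p = 0.0482). Without OA superficial zone 1 these were -2.07 ± 0.54 (adjusted p = 0.061) and -1.95 ± 0.72 (adjusted p = 0.181), and without OA condylar cartilage 3 their adjusted p was 0.179 and 0.261. The C1QB call, close to the threshold, was also lost without any 1 of control superficial zone 1 (adjusted p = 0.079), 2 (0.0844) or 3 (0.0775), control condylar cartilage 2 (0.0526) or OA condylar cartilage 1 (0.0529).

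CD68 differed between the OA zones by 0.70 ± 0.60 on the log2 scale (SE; edgeR adjusted p = 0.451), but without OA superficial zone 1 by 2.44 ± 0.37 (adjusted p = 0.0143), and LYZ and CD68 were then the 2 genes called, against 5.23% of all genes. The log2 difference of CSF1R was -0.47 ± 0.53 with that library and 0.45 ± 0.52 without it, and that of C1QA -2.52 ± 1.05 and -0.07 ± 1.0. By library, LYZ was the only one of the 9 genes other than TIMD4 that was higher without overlap in the OA condylar cartilage, against 23.0% of all genes, and C1QB and C1QC were lower, against 23.8% of all genes. Without OA superficial zone 1 these counts were 4 of the 9, against 31.2%, and 3 of the 9, against 34.6%.

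**Figure D5:**
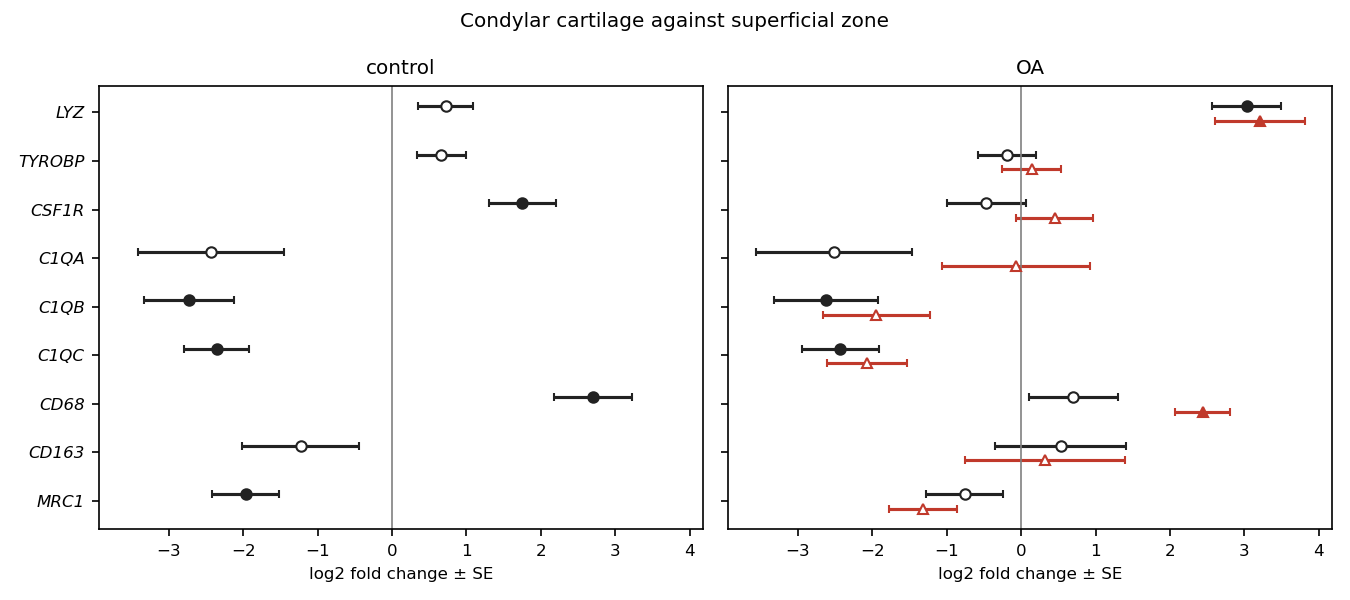
Log2 difference ± SE of condylar cartilage against superficial zone for 9 genes (TIMD4 left out), in control (left) and OA joints (right). Black circles are the 10-sample model, red triangles, drawn for the OA joints only, the model without OA superficial zone 1, and filled symbols pass an adjusted p of 0.05. C1QB and C1QC lie below 0 in both panels. CD68 is at 2.7 in control and, without OA superficial zone 1 (1 sample left in that group), at 2.44 in OA.

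Genes were also ranked by how closely their level followed these genes over the 10 samples, as the root mean square (RMS) difference of centred log2 CPM among 11095 named genes. The profile nearest to the mean of the C1q chains was that of PLTP (RMS 0.34), followed by LPAR5 (0.39), SIRPB2 (0.40), NACAD (0.41) and RAP1GAP2 (0.45), where the median gene had 1.62. Within the set MRC1 was nearest to the C1q chains (0.92), then CD163 (1.17) and TYROBP (1.39), while CSF1R (1.74), LYZ (2.07) and CD68 (2.37) were farther away than the median gene. BPGM (0.32), IL3RA (0.35), STRADB (0.35), GCA (0.36) and SLAMF6 (0.36) were nearest to LYZ, with a median of 1.42.

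For TIMD4 the nearest were PLA2G4D (0.24), FECH (0.25), SLC25A37 (0.27), IL3RA (0.29) and PLBD1 (0.30), and LYZ had an RMS of 0.43 to it. For CD163 they were METTL7A (0.39), FN3K (0.52), DNAH2 (0.54), LOC100339316 (0.58) and HAAO (0.59), with MRC1 at 0.75. CD163 was nearest within the set to MRC1. TIMD4 had no counts in the control samples, so its profile there was set by the 0.25 CPM added to every value. Its nearness to LYZ and to other genes is therefore not read as a result. These distances describe 10 samples that share libraries, depth and normalisation.

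Partners of the set in the same pathways were counted from lists. Beside these counts stand the shares of all genes called for OA in the superficial zone and in the condylar cartilage. These were 0.0208% and 0.866% by edgeR, 1.99% and 2.43% by DESeq2 and 0.0% and 10.7% by limma-voom. At an unadjusted edgeR p under 0.05 they were 11.1% and 9.25%, and for the control zones 7.49% were called by edgeR. Of 28 other macrophage and myeloid genes tested, all 28 had a positive log2 fold change for OA in the condylar cartilage and 2 rose by edgeR, ITGAM (an integrin of myeloid cells, also on neutrophils; 3.53 ± 0.63 (SE), adjusted p = 0.0282) and CD48 (2.49 ± 0.49, adjusted p = 0.0439). For the superficial zone 27 of the 28 were positive, with none called by edgeR or limma-voom, 3 called by DESeq2 and 11 at an unadjusted p under 0.05. The calls of ITGAM and CD48 were lost without any 1 of the control superficial zone libraries or of control condylar cartilage 1 or 2, with an adjusted p of at most 0.163 and 0.227. DESeq2 called 9 of the 28 and limma-voom 14 in the condylar cartilage, against 2.43% and 10.7% of all genes. Their summed level was 224 to 389 CPM in control and 522 to 1051 CPM in OA condylar cartilage. In control joints 6 of them were higher in the condylar cartilage and none lower.

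TREM2, the best known receptor that signals through TYROBP, was at 1.33 ± 0.365 CPM (SD, n = 3) in the control superficial zone and at 6.18 ± 3.76 CPM (SD, n = 2) in OA, a log2 fold change of 2.19 (edgeR adjusted p = 0.177), and of 1.4 without OA superficial zone 1 (adjusted p = 0.492). Of 13 TYROBP partners and signalling genes tested, CLEC5A, a receptor of myeloid cells that uses TYROBP, rose in OA condylar cartilage (2.91 ± 0.59 (SE), adjusted p = 0.0483), a call kept in 4 of 12 fits with 1 library left out (adjusted p of 0.0347 to 0.227). Between the superficial zone groups edgeR and limma-voom called none, DESeq2 called 2, and 6 had an unadjusted p under 0.05. In control joints 5 of the 13 were higher in the condylar cartilage, LYN, BTK, SIGLEC15, OSCAR and INPP5D. Of these, SIGLEC15 and OSCAR stand also in the osteoclast list.

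The CSF1R ligand CSF1 was at 80.1 ± 7.0 CPM (SD, n = 3) in the control superficial zone and 238 ± 138 CPM (SD, n = 2) in OA (edgeR adjusted p = 0.159), and its log2 fold change was 1.57 with and 0.81 without OA superficial zone 1. IL34, the other ligand, was lower in OA condylar cartilage than in the OA superficial zone, 11.4 ± 0.999 against 46.8 ± 3.89 CPM (SD, n = 2 each; log2 difference -2.03 ± 0.38 (SE), adjusted p = 0.0145). None of the 7 genes tested of the CSF1R ligand list was called by edgeR in an OA comparison, with 4 in the superficial zone and 1 in the condylar cartilage at an unadjusted p under 0.05. DESeq2 called 2 of them in the superficial zone and limma-voom 2 in the condylar cartilage.

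Of 35 other complement genes listed, 17 were tested. C5AR1, the receptor for the complement fragment C5a, rose in OA condylar cartilage from 1.37 ± 0.380 (SD, n = 3) to 11.0 ± 7.49 CPM (SD, n = 2; log2 fold change 3.00 ± 0.50 (SE), edgeR adjusted p = 0.0237). The C5AR1 call was lost without control superficial zone 1 or control condylar cartilage 1 or 2 (adjusted p of at most 0.136). No other complement gene was called by edgeR in an OA comparison, with 4 at an unadjusted p under 0.05 in each zone, while limma-voom called 9 in the condylar cartilage, and 12 of 17 in the superficial zone and 14 of 17 in the condylar cartilage were positive. MASP1, a protease of the lectin pathway of complement, was lower in control condylar cartilage than in the control superficial zone, as the C1q chains were, at 37.1 ± 10.9 against 486 ± 38.5 CPM (SD, n = 3 each; adjusted p = 0.000541). CLU, which encodes the complement inhibitor clusterin, was lower there as well (log2 difference -1.83 ± 0.46 (SE), adjusted p = 0.0322), while C5AR2 was higher (3.34 ± 0.58, adjusted p = 0.00538).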

How the data were processed

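Bulk RNA was sequenced from 12 libraries. The build was OryCun2.0, and the tools were DESeq2 1.26.0, MultiQC 1.13, Salmon 1.1.0, STAR 2.7.9a, StringTie 2.1.0 and Trim Galore 0.6.7, listed per the submitters' processing notes with no order or role. The deposited table gives estimated counts in whole numbers, the deposited TPM and, per the file headers, a Salmon feature length for each gene. The headers call the counts both raw and normalised, and they were used as raw since library totals differ. RefSeq names (assembly mOryCun1.1) filled in 1370 symbols of 14621 genes, none of them of the 10 genes described, and no coordinates were used.

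edgeR 4.0.16 (R 4.3.3) was run on the counts, with TMM scaling, filterByExpr at a minimum count of 10 and the quasi-likelihood F test, in 1 model of 4 groups and 10 samples, with Benjamini-Hochberg adjustment over 14438 genes and a threshold of 0.05. There were 5 comparisons. Each SE was derived from the test, as |log2 fold change| over the square root of F. CPM uses TMM-scaled totals, and means and SD take each near-duplicate pair as 1 sample. Likeness used a pseudocount of 0.25 CPM. The alternatives were other scalings, filters and tools (DESeq2 1.42.0, limma 3.58.1), 12 separate libraries and left-out libraries. The code was tested on simulated data.

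The genes and the 16 lists were chosen with earlier results of these data known. Named genes were the 10 and, from each list, up to 4 called in an OA comparison or up to 3 of smallest p. List genes named for a zone difference, TREM2, CSF1, IL34 and the lists' sums without MMP9 were chosen after their values were seen.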

Additional observations from a re-analysis of the deposited data

How the results depend on the processing

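The number of the 10 genes called was recomputed under each alternative, and the share of all genes tested that the same alternative called stands after it. In OA against control in the superficial zone (0 by edgeR) it was 2 with DESeq2 (1.99%) and 1 with 12 separate libraries (1.12%), also without OA superficial zone 1 (4.96%), and 0 throughout when 1 library was left out (at most 0.353%). In the condylar cartilage (1) it was 2 with DESeq2 (2.43%), 7 with limma-voom (10.7%), 0 with only the groups compared (0.0%), 3 with 12 separate libraries (3.03%), 5 without both OA superficial zone 1 and control condylar cartilage 3 (4.57%), 4 with 12 separate libraries without OA superficial zone 1 (10.8%), and 0 to 2 with 1 library left out (0.0% to 1.53%, 2 without OA superficial zone 1). TIMD4 was 1 of the 7, of the 3 and of the 4, which are 6, 2 and 3 without it. No test of TIMD4 is read, here or in the counts below. For the difference between zones (0) it was 1 with DESeq2 (0.803%) and 1 with 12 separate libraries, with (0.674%) or without OA superficial zone 1 (3.15%). For the control zones (5) it was 1 to 5 with 1 library left out, the lowest without control superficial zone 2 (3.4%). There it was 6 with limma-voom (23.7%), without both libraries (16.8%) and with 12 separate libraries without OA superficial zone 1 (18.2%). For the OA zones (3) it was 1 with library totals only (4.43%), 0 with limma-voom (0.928%), 0 with only the groups compared (0.0%), 5 without both libraries (12%), 6, TIMD4 among them, with 12 separate libraries without OA superficial zone 1 (21.5%), and 1 to 3 with 1 library left out, the lowest without OA condylar cartilage 3 (0.714%). The setting of 12 libraries without OA superficial zone 1 was chosen after seeing the data.

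Replicate numbers are shared by the groups. The deviations of same-numbered libraries from their group means had correlations of -0.262 to 0.291 over the genes tested, so these libraries were not taken as pairs. With the replicate number as a block the 12 separate libraries gave 0, 3, 0, 5 and 4 of the 10 genes called in the order above, against 1, 3, 1, 5 and 4 without it, TIMD4 being 1 of each 3 and 4.

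Directions that turned belonged to log2 differences whose tests did not pass. TYROBP between OA zones was 0.16 with library totals, 0.18 without both libraries, 0.21 with 12 libraries without OA superficial zone 1, and -0.21 to 0.14 with 1 library left out. CSF1R for OA in the condylar cartilage was 0.14 without both and -0.63 to 0.15 with 1 left out, and between OA zones 0.49, 0.46 with 12 libraries without OA superficial zone 1, and -0.51 to 0.45. C1QA for OA in the superficial zone was -0.31 without both, -0.31 with 12 libraries without OA superficial zone 1, and -0.26 to 2.92, and between OA zones 0.18 in that last 12-library setting. The C1QA difference of OA effects was 0.82 with library totals, 0.50 with limma-voom, 0.59 with 12 libraries, 1.32 with the replicate block, 2.88 without both, 2.63 with 12 libraries without OA superficial zone 1, and -0.79 to 2.37. That of C1QB was -0.33 to 1.08 with 1 left out. That of C1QC was 0.58, 0.53, 0.13, 0.16, 0.93, 0.41 and -0.36 to 0.55 in the same order as C1QA. CD68 for OA in the superficial zone was -0.54 without both, -0.51 with 12 libraries without OA superficial zone 1, and -0.50 to 1.38. The causes were not tested. Low counts limit C1QA, CD163 and TIMD4 in the condylar cartilage.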

Other observations

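Several other cell type lists were counted beside the macrophage and C1q genes. Of all genes, 0.866% were called for OA in the condylar cartilage by edgeR, 2.43% by DESeq2 and 10.7% by limma-voom, and 9.25% had an unadjusted edgeR p under 0.05. Of 5 eosinophil and mast cell genes tested, edgeR called PRG2, PRG3 and EPX, which encode proteins of eosinophil granules, higher in OA condylar cartilage. PRG2 and PRG3 averaged at most 0.0509 CPM in each control group, so they passed the filter on low counts only through OA libraries. Like TIMD4, these 2 are given as a description and no test of them is read. EPX was low too, averaging 1.03 CPM in control condylar cartilage and 0.418 CPM in the control superficial zone, so its call is also a description. All 3 calls were lost without control condylar cartilage 1 or 2, and 1, 1 and 2 were left without control superficial zone 1, 2 and 3. PRG2 was at 71.3 ± 61.5 CPM (SD, n = 2) in OA and 0.0374 ± 0.0648 CPM (SD, n = 3) in control condylar cartilage. The summed list was at 74.8 to 277 CPM in OA against 6.08 to 8.67 CPM in control condylar cartilage. Lymphocyte genes, 4 tested, were positive for all 4 with none called by edgeR, 2 by DESeq2, 3 by limma-voom and 2 at an unadjusted p under 0.05, with sums of 12.3 to 37.4 CPM in OA and 1.22 to 7.52 CPM in control condylar cartilage. Dendritic cell and antigen presentation genes, 5 tested, were positive for all 5 with none called by edgeR or DESeq2, 3 by limma-voom and 2 at an unadjusted p under 0.05.

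Of 17 resident macrophage and scavenger genes tested, CD36, a scavenger receptor, rose in OA condylar cartilage (log2 fold change 2.95 ± 0.59 (SE), edgeR adjusted p = 0.0465), a call kept in 6 of 12 fits with 1 library left out (adjusted p of 0.0285 to 0.192). Of 4 monocyte recruitment genes tested, CCR1 was higher in the condylar cartilage in control (3.48 ± 0.52, adjusted p = 0.00257) and in OA joints (2.45 ± 0.60, adjusted p = 0.0364). Of 5 fibroblast genes tested, 3 were lower in control condylar cartilage, among them PRG4, which encodes lubricin, at 30.5 ± 11.0 against 228 ± 57.0 CPM (SD, n = 3 each; adjusted p = 0.00228). No skeletal muscle or cartilage matrix gene was called by edgeR, DESeq2 or limma-voom in an OA comparison, with 2 of 7 and 0 of 10 at an unadjusted p under 0.05 in the condylar cartilage.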
